A study of Mus musculus with 8 samples.

Results

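The genes described here encode the respiratory chain and the ATP synthase of the mitochondrion. They were taken by name from a table of gene counts: the genes whose names start with mt-, and the nuclear genes of the families Ndufa, Ndufb, Ndufc, Ndufs and Ndufv (complex I), Sdha to Sdhd (complex II), Uqcr (complex III), Cox4 to Cox8 (complex IV) and Atp5 (complex V). These names matched 139 of the 56030 genes in the table. Of the 139, 37 are encoded in the mitochondrial genome (13 protein subunits, 2 ribosomal RNAs and 22 transfer RNAs) and 102 in the nucleus (43 of complex I, 4 of complex II, 10 of complex III, 21 of complex IV and 24 of complex V). By name or annotation, 17 of the 102 nuclear genes were set apart as likely pseudogenes or gene copies, and the other 85 are called nuclear subunit genes.

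RNA was sequenced from cells of the ileal crypts of C57BL/6 mice. One group had been given CPT-11 at 20 mg/kg for 7 days (4 libraries, CPT-11 1 to 4) and the other group vehicle (4 libraries, vehicle 1 to 4). CPT-11 is irinotecan, a prodrug whose active form traps topoisomerase I on DNA. Crypts were freed with EDTA and shaking, strained and dissociated with trypsin, with no cell sorting described, and the labels used here give no age or sex. Whether every library stands for its own mouse is not stated, so a p-value here sets the groups against the variation among libraries, part of which may be technical.

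The respiratory chain passes electrons from NADH (complex I) and succinate (complex II) through ubiquinone to complex III, and through cytochrome c to complex IV, where oxygen is reduced. Complexes I, III and IV pump protons across the inner membrane, and complex V uses the gradient to make ATP. All subunits of complex II are nuclear, while the other complexes join nuclear subunits with a few made inside the mitochondrion, which are transcribed there by a separate polymerase from both strands of a small circular genome. In the intestine, differentiated enterocytes and crypt cells both hold these complexes, and crypt cells are known to differ among themselves in how far they rely on them.

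The libraries held 20790164 to 23479121 counts. Spearman's rho between log CPM of vehicle libraries was 0.987 to 0.990, while CPT-11 2 reached 0.931 to 0.962 with the other CPT-11 libraries and had a TMM scaling factor of 0.731, against 0.977 to 1.10 in the other 7 libraries. It stood apart in many of the results below, and values without it are given for the genes and medians it moved most. The labelled cell type had its markers: the 5 crypt stem markers summed to 365 to 545 CPM in CPT-11 libraries and 1317 to 1559 CPM in vehicle libraries, with 3 of the 5 lower in edgeR's test described below, and the 5 Paneth markers to 20706 to 42256 CPM in CPT-11 libraries and 33558 to 46663 CPM in vehicle libraries. The 15 enterocyte markers summed to 22098 to 65314 CPM in CPT-11 libraries, with CPT-11 2 the highest, and to 15333 to 24423 CPM in vehicle libraries. Goblet markers summed to 9203 to 34296 CPM in CPT-11 libraries, again highest in CPT-11 2, and to 9289 to 12697 CPM in vehicle libraries. The 6 markers of dividing cells summed to 356 to 455 CPM in CPT-11 libraries and 587 to 783 CPM in vehicle libraries (3 fell). The B and plasma cell markers summed to 6.49 to 14.6 CPM in CPT-11 libraries and 1.40 to 5.47 CPM in vehicle libraries (3 of 4 tested rose). The groups did not overlap for stem, dividing and B and plasma cell markers. They also did not overlap for tuft markers (19.5 to 23.4 CPM in CPT-11 libraries, 24.5 to 31.6 CPM in vehicle libraries). The same held for endothelial markers (2.58 to 3.64 CPM in CPT-11 libraries, 2.12 to 2.37 CPM in vehicle libraries). Macrophage and dendritic cell markers summed to 285 to 827 CPM in CPT-11 libraries and 70.9 to 356 CPM in vehicle libraries, and all 4 neutrophil markers averaged under 0.5 CPM in CPT-11 libraries. The part of these cell types in the results on respiratory genes was not tested. In bulk RNA, fewer cells of a type and less RNA per cell cannot be told apart.

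Part of the mitochondrial genome is also present in nuclear DNA, and reads from such a stretch cannot be assigned with certainty. The GENCODE M21 transcripts on GRCm38 place near-exact copies of 6 mitochondrial subunit genes side by side on chromosome 1, and the table counts them as separate genes. Gm28661 repeats the coding sequence of mt-Co2 (681 bases), Gm28437 that of mt-Co3 (783 bases), Gm10925 that of mt-Atp6 (678 bases) and Gm10222 that of mt-Nd4l (294 bases), all at 100% identity. Gm28438 repeats mt-Nd3 (345 bases, 99.71%) and Gm29216 the last 483 bases of mt-Co1 (99.793%). A 7th copy, Gm13340 on chromosome 2, repeats all of mt-Co1 at 97.605% identity. The first 90 bases of mt-Co2 and its copy, the first 90 bases of mt-Nd3 and its copy, and a stretch of mt-Co1 with its short copy are shown, since they set what the counts of these genes can mean. Capitals mark a base that differs within a pair.
mt-Co2, chrM:7013-7102, plus strand, GRCm38: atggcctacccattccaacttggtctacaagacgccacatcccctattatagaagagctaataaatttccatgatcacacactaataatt
Gm28661, chr1:24615476-24615565, minus strand: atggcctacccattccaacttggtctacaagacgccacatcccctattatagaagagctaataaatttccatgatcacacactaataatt
mt-Nd3, chrM:9459-9548, plus strand: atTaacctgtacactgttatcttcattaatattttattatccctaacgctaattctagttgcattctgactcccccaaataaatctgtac
Gm28438, chr1:24613030-24613119, minus strand: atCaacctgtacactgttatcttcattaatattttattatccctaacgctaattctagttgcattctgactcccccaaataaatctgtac
mt-Co1, chrM:6390-6479, plus strand: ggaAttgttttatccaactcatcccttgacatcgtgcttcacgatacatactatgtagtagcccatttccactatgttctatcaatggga
Gm29216, chr1:24616099-24616188, minus strand: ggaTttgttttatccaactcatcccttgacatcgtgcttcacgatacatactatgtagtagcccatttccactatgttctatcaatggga
The substitutions, counted from base 1 of the mitochondrial gene and with its base first, were T3C for mt-Nd3 and Gm28438 and A1066T for mt-Co1 and Gm29216.

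For 5 of these genes the copies held most of the counts, and for mt-Co1 the smaller part. Over all 8 libraries, copies took 94.3% of the summed count for mt-Co2, 87.3% for mt-Co3, 80.6% for mt-Atp6, 79.2% for mt-Nd4l, 58.9% for mt-Nd3 and 16.4% for mt-Co1. The other mitochondrial subunits, mt-Nd1, mt-Nd2, mt-Nd4, mt-Nd5, mt-Nd6, mt-Atp8 and mt-Cytb, and both ribosomal RNAs had under 0.01% of their counts in an annotated copy. Copies were sought among annotated transcripts only, so nuclear copies without annotation would not be seen for these genes. Counts of the 6 genes are thus uncertain, and their sums with the copies are given beside them.

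Mitochondrially encoded genes made up 10.2, 8.44, 8.79 and 8.98% of all counts in CPT-11 libraries 1 to 4, against 6.92, 8.70, 6.53 and 8.59% in vehicle libraries 1 to 4. The means were 9.10 ± 0.76% in CPT-11 libraries and 7.69 ± 1.12% in vehicle libraries (SD, n = 4 each), and the groups overlapped. With the nuclear copies added, the shares were 15.4, 17.7, 12.84 and 15.02% in CPT-11 libraries, against 10.1, 12.85, 9.52 and 12.5% in vehicle libraries. CPT-11 3 was then a little under vehicle 2, and the other CPT-11 libraries were above all vehicle libraries. The mean difference was 3.97 percentage points with the copies and 1.41 percentage points without them. Nuclear encoded members held 1.87 ± 0.22% of counts in CPT-11 libraries and 1.89 ± 0.10% in vehicle libraries. No test was made of these shares, whose members were chosen with results of these data known.

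**Figure D1:**
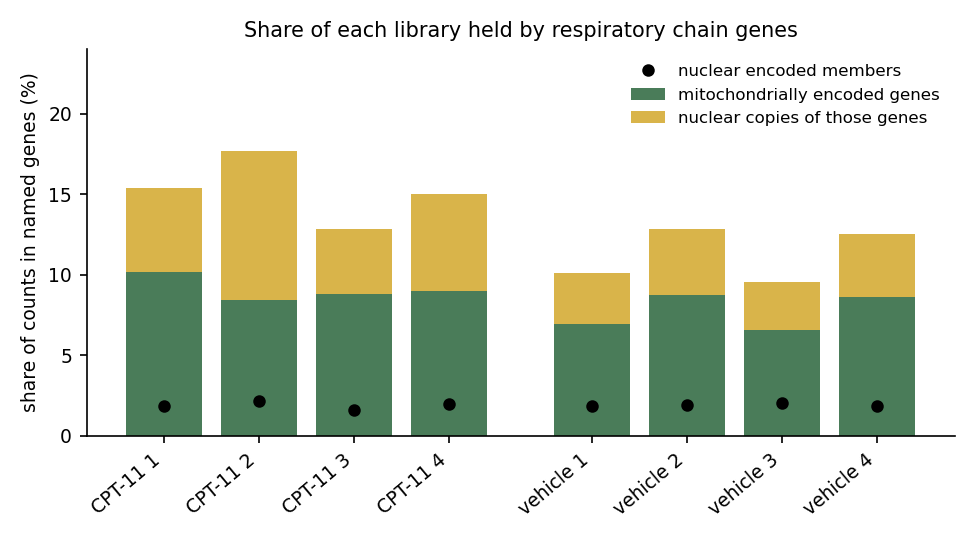
Share of each library's counts (percent of counts in named genes) from mitochondrially encoded genes (green), from their nuclear copies stacked on top (yellow) and from nuclear encoded members (black points), CPT-11 libraries on the left and vehicle libraries on the right. CPT-11 2 has the tallest bar at 17.7% but the lowest green part of the CPT-11 libraries at 8.44%, since its copies hold 9.23%.

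Differential expression was tested with edgeR's quasi-likelihood test on 14011 genes, with Benjamini-Hochberg adjustment over all of them and a threshold of 0.05. Of the 139 members, 95 passed the filter on low counts. These were the 13 mitochondrial protein subunits, both ribosomal RNAs, 78 nuclear subunits and 2 nuclear genes set apart above (Ndufb1-ps and Ndufb4c). Ndufb4c is annotated as a processed pseudogene. Ndufb1-ps is annotated as a long non-coding RNA at a bidirectional promoter and was set apart for its name alone, so it may not be a copy. A single member, the nuclear gene Cox6b2, passed the test, against 5.5% of all genes tested (2.98% higher and 2.52% lower). None of the 15 mitochondrial genes passed. An unadjusted p under 0.05 in edgeR was seen for 7 of the 15 and for 7 of the 80 nuclear members tested. Over all genes it was seen for 3442 of 14011. A gene that did not pass may still have changed. On simulated counts the test found 4 of 67 genes changed 1.5-fold and 22 of 67 changed 2-fold. The simulation gave no library a shift of its own such as that of CPT-11 2. DESeq2 called 4 of the 95 members, against 13.4% of all genes: mt-Nd6, mt-Rnr2 and Cox6b2 higher and Sdha lower. Groups that did not overlap in CPM were seen for 3 members higher (mt-Nd6, Cox6b2 and Atp5g2) and 1 lower (Sdha), against 8.41% of all genes higher and 10.1% lower.

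Cox6b2 encodes the isoform of complex IV subunit 6B that is best known from testis, and Cox6b1 the form found in most tissues. Cox6b2 lies at chr7:4751792-4753094 on the minus strand of GRCm38. It stood at 5.99, 16.8, 5.19 and 4.80 CPM in CPT-11 libraries 1 to 4, against 1.70, 2.09, 2.13 and 1.88 CPM in vehicle libraries 1 to 4. All CPT-11 libraries were above all vehicle libraries, and CPT-11 2 was far above the other 3. The log2 fold change was 2.06 ± 0.41 (SE; adjusted p = 0.021, edgeR). It was 1.46 without CPT-11 2 (adjusted p = 0.0019, edgeR). The call was lost when any vehicle library was left out, with adjusted p between 0.057 and 0.080 in edgeR and log2 fold changes of 2.01 to 2.11. The gene was rare: its counts were 132, 273, 124 and 97 in CPT-11 libraries and 39, 44, 51 and 44 in vehicle libraries.

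Cox6b1 had 326, 784, 264 and 401 CPM in CPT-11 libraries, against 266, 319, 344 and 301 CPM in vehicle libraries. These groups overlapped, and the log2 fold change of Cox6b1 was 0.53 ± 0.30 (SE; adjusted p = 0.30, edgeR) and 0.11 without CPT-11 2. Per kilobase of transcript, Cox6b2 averaged 21.0 ± 14.8 CPM in CPT-11 libraries and 4.98 ± 0.51 CPM in vehicle libraries, and Cox6b1 718 ± 378 CPM and 497 ± 53.0 CPM (SD, n = 4 each). The testis-known isoform thus stayed far below its partner in both groups.

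**Figure D2:**
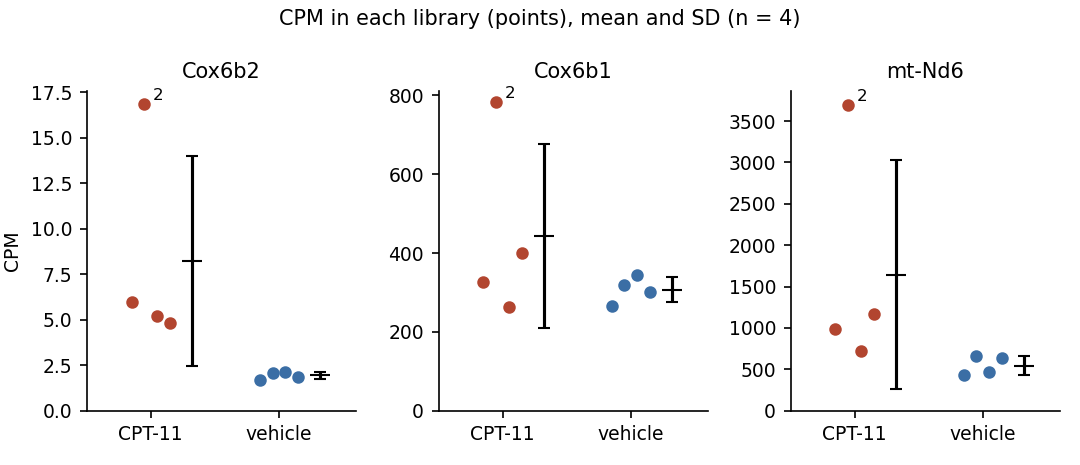
CPM of the complex IV isoforms Cox6b2 and Cox6b1 and of the complex I subunit mt-Nd6 in each library (points; the number 2 marks CPT-11 2), CPT-11 to the left of vehicle, with mean and SD (n = 4). The groups are separate for Cox6b2 and mt-Nd6 and overlap for Cox6b1, and CPT-11 2 is the highest point in all panels.

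The other isoform pairs of complex IV did not pass the test. Cox7a1, the form typical of heart and skeletal muscle, had 29.9, 96.2, 26.5 and 27.2 CPM in CPT-11 libraries, against 21.9, 33.3, 29.9 and 26.8 CPM in vehicle libraries. Cox7a2, its widely expressed partner, had 149, 499, 115 and 180 CPM in CPT-11 libraries, against 107, 129, 136 and 122 CPM in vehicle libraries. In both genes CPT-11 2 stood alone, and the log2 fold changes without it were 0.01 for Cox7a1 and 0.28 for Cox7a2. Cox6a1 and Cox8a, the widely expressed forms of their subunits, had log2 fold changes of 0.55 and 0.47, and -0.02 and -0.06 without CPT-11 2. Their muscle-type partners were nearly or fully silent: Cox6a2 had 0 to 10 counts per library, and Cox8b had none, below a floor of 3 counts, or 0.129 to 0.145 CPM without TMM scaling. Cox4i2, a lung-type and hypoxia-linked form of subunit 4, also had no count. Its partner Cox4i1 averaged 857 ± 269 CPM in CPT-11 libraries and 803 ± 100 CPM in vehicle libraries (SD, n = 4 each; log2 fold change 0.09 ± 0.22, SE). The core-adjacent subunits Cox5a and Cox5b had log2 fold changes of 0.39 and 0.40, with 0.14 and -0.09 without CPT-11 2. Ndufa4, named for complex I but now placed in complex IV, had a log2 fold change of 0.34, and 0.11 without CPT-11 2, and its paralog Ndufa4l2 had 0 to 2 counts per library. Over the 13 tested complex IV genes by name the median log2 fold change was 0.43, and 0.0086 without CPT-11 2.

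Among the mitochondrial genes, mt-Nd6 had the largest log2 fold change and the smallest p. It encodes a membrane subunit of complex I and is the one protein gene transcribed from the light strand, at chrM:13552-14070. It stood at 990, 3698, 716 and 1172 CPM in CPT-11 libraries 1 to 4, against 427, 658, 465 and 631 CPM in vehicle libraries 1 to 4. Every CPT-11 library was above every vehicle library. Its log2 fold change was 1.59 ± 0.47 (SE), but the adjusted p was 0.081 in edgeR and did not pass. It passed in edgeR without CPT-11 2 (0.83, adjusted p = 0.033), without CPT-11 3 (1.84, adjusted p = 0.034) and with each library's trend on gene length removed (0.98, adjusted p = 0.032), and with DESeq2 (adjusted p = 0.0060). Whether counting used strand is not given in the sources used here, so reads of mt-Nd6 cannot be told apart from antisense RNA at its place. Its annotated exon shares 14 bases with mt-Nd5 on the other strand, and mt-Nd5 had 4022, 7049, 3817 and 2837 CPM in CPT-11 libraries, against 2703, 3286, 2481 and 3030 CPM in vehicle libraries, with overlap.

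Both mitochondrial ribosomal RNAs, which form the core of the mitochondrion's own ribosome, had higher means in CPT-11 libraries. mt-Rnr1, the small-subunit RNA, had 1376, 3731, 1266 and 2053 CPM in CPT-11 libraries, against 723, 1372, 667 and 1452 CPM in vehicle libraries. mt-Rnr2, the large-subunit RNA, had 2161, 5313, 2067 and 3152 CPM in CPT-11 libraries, against 1082, 2048, 960 and 2130 CPM in vehicle libraries. The groups overlapped for both, and vehicle libraries 2 and 4 were about as high as the lower CPT-11 libraries. The log2 fold changes were 0.9998 ± 0.40 for mt-Rnr1 (adjusted p = 0.16, edgeR) and 1.03 ± 0.38 for mt-Rnr2 (SE; adjusted p = 0.14, edgeR). DESeq2 called mt-Rnr2 (adjusted p = 0.038). Both were smaller without CPT-11 2, at 0.58 for mt-Rnr1 and 0.67 for mt-Rnr2 (adjusted p = 0.28 and 0.21, edgeR), and without CPT-11 libraries 2 and 4, at 0.33 and 0.45. No transfer RNA gene passed the filter: 12 of 22 had no count in any library, and 1, mt-Ts1, had 15.3, 166, 5.04 and 18.8 counts in CPT-11 libraries, against 1.55, 5.13, 3.80 and 5.13 in vehicle libraries. It was singled out after its values were seen.

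The mitochondrial subunits of complex I, mt-Nd6 among them, lie in its proton-pumping membrane arm. mt-Nd1, mt-Nd2, mt-Nd4 and mt-Nd5, with next to no counts in annotated copies, had log2 fold changes of 0.52, 0.45, 0.62 and 0.62 (adjusted p 0.20 to 0.26, edgeR). Without CPT-11 2 the values were 0.31, 0.23, 0.35 and 0.32. mt-Cytb, the cytochrome b of complex III, had a log2 fold change of 0.46 ± 0.23 (SE; adjusted p = 0.25, edgeR). These 5 genes moved by similar amounts, and none passed the test. mt-Nd3 was at 1.37 ± 0.54 alone and 0.74 ± 0.30 with its copy (SE; adjusted p = 0.15 and 0.17, edgeR), and 0.49 alone without CPT-11 2. mt-Nd4l had the lowest value of the mitochondrial genes, -0.39 ± 0.21 alone and -0.25 ± 0.30 with its copy (SE; adjusted p = 0.28 and 0.62, edgeR).

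In complex IV and complex V, the reading of the mitochondrial subunits turned on their copies. mt-Co1, the subunit of complex IV that holds the oxygen-reducing site, was the most abundant member, with 28069 ± 6314 CPM per kilobase in CPT-11 libraries and 26275 ± 3778 CPM per kilobase in vehicle libraries (SD, n = 4 each). mt-Co1 alone had 52049, 29422, 45060 and 46938 CPM in CPT-11 libraries, against 35162, 47675, 36515 and 43027 CPM in vehicle libraries. CPT-11 2 was the lowest of all 8 libraries. With its copies added, mt-Co1 had 59041, 63589, 49482 and 59018 CPM in CPT-11 libraries, against 38644, 52733, 40366 and 47671 CPM in vehicle libraries, and CPT-11 2 was the highest. The log2 fold change was 0.10 ± 0.27 alone and 0.37 ± 0.24 with copies (SE; adjusted p = 0.85 and 0.36, edgeR).

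The copies of mt-Co1 took an unequal part in the libraries. Gm29216 held 6.86, 42.6, 4.62 and 13.8% of its pair with mt-Co1 in CPT-11 libraries, against 5.05, 5.13, 5.45 and 5.24% in vehicle libraries. Gm13340 held 5.71, 29.5, 4.77 and 8.87% of its own pair with mt-Co1 in CPT-11 libraries, against 4.399, 4.95, 4.58 and 5.00% in vehicle libraries. CPT-11 2 was far above the rest in both, CPT-11 4 came next, and the vehicle libraries lay close together. Gm28438 went the other way, with 28.6% of the pair with mt-Nd3 in CPT-11 2 and 58.8 to 70.0% in the other CPT-11 libraries, against 65.3 to 73.5% in vehicle libraries. As a share of all counts in the 13 mitochondrial subunit genes, mt-Co1 was at 27.6% in CPT-11 2, and 54.0 to 58.7% in the other CPT-11 libraries, against 55.4 to 58.9% in vehicle libraries. The cause of the split between gene and copy was not tested.

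mt-Co2, which takes electrons from cytochrome c, had a log2 fold change of 1.49 ± 0.52 alone and 0.95 ± 0.36 with its copy (SE; adjusted p = 0.12 and 0.15, edgeR), and 0.73 alone without CPT-11 2. mt-Co3, the remaining mitochondrial subunit of complex IV, had 0.93 ± 0.47 alone and 0.80 ± 0.34 with its copy (SE; adjusted p = 0.25 and 0.18, edgeR), and 0.25 alone without CPT-11 2. mt-Atp6, the proton channel subunit of complex V, had 1.54 ± 0.64 alone and 1.15 ± 0.42 with its copy (SE; adjusted p = 0.18 and 0.13, edgeR). mt-Atp6 alone was at 8808 CPM in CPT-11 2 and 867 to 2137 CPM in the other CPT-11 libraries, against 831 to 1337 CPM in vehicle libraries, and its log2 fold change was 0.35 without CPT-11 2 and -0.07 without CPT-11 libraries 2 and 4. mt-Atp8, its neighbour, which shares 43 bases with mt-Atp6 on the same strand and has no counted copy, had -0.04 ± 0.22 (SE; adjusted p = 0.92, edgeR). Adding the copies left each of the 15 mitochondrial genes on the same side of 0 and of the threshold, and the log2 fold changes of mt-Co2, mt-Co3, mt-Atp6 and mt-Nd3 were smaller with the copies than without.

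**Figure D3:**
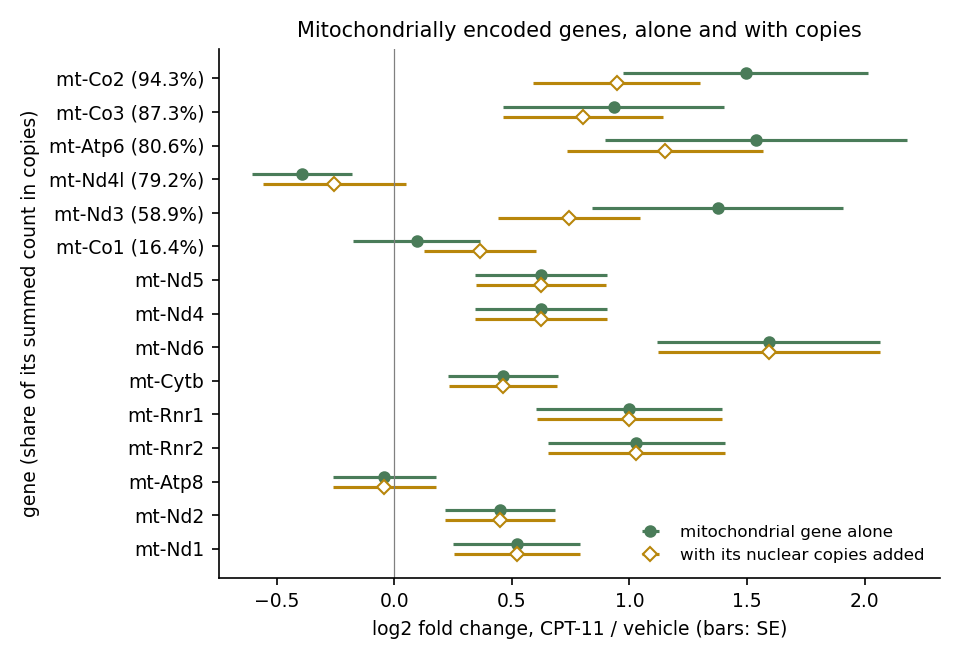
Log2 fold change (CPT-11 over vehicle; bars, SE) of the 13 mitochondrial protein genes and 2 ribosomal RNAs, for the gene alone (green circles) and with its nuclear copies added (open diamonds), ordered by the share of the summed count that the copies hold. The markers part for the 6 genes with near-exact annotated copies, for example 1.49 against 0.95 for mt-Co2, and coincide for the rest.

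Complex II is fully nuclear, and none of its 4 genes had a positive log2 fold change with all libraries. Without CPT-11 3, and likewise without vehicle 3, 2 of the 4 were positive. The 4 genes are 1142 to 3171 bases long, against a median of 728 bases for nuclear subunits, and fold changes went down with length as described below. Sdha, the flavoprotein that oxidises succinate, had 335, 262, 348 and 335 CPM in CPT-11 libraries, against 415, 420, 403 and 378 CPM in vehicle libraries. All CPT-11 libraries were below all vehicle libraries. The log2 fold change was -0.34 ± 0.14 (SE; adjusted p = 0.17, edgeR), and DESeq2 called it (adjusted p = 0.044). Sdhb, the iron-sulfur subunit, was at -0.03, and the membrane anchors Sdhc and Sdhd were at -0.03 and -0.08, with overlap between groups. Without CPT-11 2 the 4 values were -0.24 for Sdha, -0.13 for Sdhb, -0.13 for Sdhc and 0.01 for Sdhd.

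In complex I, no nuclear gene passed among 36 subunits tested, whose median log2 fold change was 0.33, and 0.04 without CPT-11 2. Among core subunits that carry electrons from NADH, Ndufs1 was at -0.10, Ndufv1 at -0.17 and Ndufv2 at 0.10 (adjusted p 0.48 to 0.75, edgeR). Ndufb6, an accessory membrane subunit, had the smallest p of those with a positive value, with 60.6, 147, 46.2 and 71.2 CPM in CPT-11 libraries, against 45.0, 47.7, 53.4 and 44.4 CPM in vehicle libraries. CPT-11 3 lay among the vehicle libraries. Its log2 fold change was 0.77 ± 0.31 (SE; adjusted p = 0.17, edgeR), and 0.33 without CPT-11 2. Without strand its counts cannot be told apart from those of Smim27, which overlaps it by 257 bases on the opposite strand and had 553 counts in all against 10614.

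In complex III, none of 8 nuclear genes passed, with a median log2 fold change of 0.38, and 0.08 without CPT-11 2. Uqcrb, a small subunit near the ubiquinone site, had 148, 316, 112 and 155 CPM in CPT-11 libraries, against 106, 110, 100 and 112 CPM in vehicle libraries. CPT-11 3 and vehicle 4 were nearly equal, and the log2 fold change was 0.77 ± 0.28 (SE; adjusted p = 0.13, edgeR). Without CPT-11 3 it passed (0.95, adjusted p = 0.047, edgeR), while without CPT-11 2 it was 0.38 (adjusted p = 0.087, edgeR) and without CPT-11 libraries 2 and 4 it was 0.29. Gm10767 overlaps Uqcrb by 50 bases on the opposite strand and had 176 counts in all, against 23961. The core proteins Uqcrc1 and Uqcrc2 were at -0.08 and -0.26, and the Rieske iron-sulfur protein Uqcrfs1 at -0.10.

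In complex V, none of 17 nuclear genes passed, with a median log2 fold change of 0.40, and 0.05 without CPT-11 2. Atp5a1 and Atp5b, the subunits of the catalytic head, averaged 663 and 1203 CPM per kilobase in vehicle libraries. They were at -0.27 and -0.20 (adjusted p = 0.33 and 0.47, edgeR), and the rotor shaft Atp5c1 at -0.25. Atp5b averaged 2008 ± 205 CPM in CPT-11 libraries and 2304 ± 183 CPM in vehicle libraries (SD, n = 4 each). Atp5g2 encodes 1 of the 3 isoforms of the rotor ring protein and was the one nuclear member besides Cox6b2 that was higher without overlap, with 4.90, 8.26, 5.17 and 4.77 CPM in CPT-11 libraries, against 4.25, 3.56, 4.41 and 3.04 CPM in vehicle libraries. Its log2 fold change was 0.60 ± 0.23 (SE; adjusted p = 0.15, edgeR), and 0.39 without CPT-11 2. However, Gm10175 matches Atp5g2 at 100% over 645 bases and held 36608 counts in all, against 811 for Atp5g2. The sum of both was 229 ± 89.8 CPM in CPT-11 libraries and 213 ± 17.5 CPM in vehicle libraries (SD, n = 4 each), with overlap, so the counts of Atp5g2 alone are uncertain. The same holds for Ndufb4 and Ndufb4c, which match over 390 bases, and for Atp5l and Gm10221, which match over 309 bases.

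Set against each other, the mitochondrial subunits had the higher median. The median log2 fold change was 0.62 over the 13 mitochondrial protein subunits (11 positive), 0.35 over the 78 nuclear subunits (63 positive) and 0.01 over all genes tested (7188 of 14011 positive). Without CPT-11 2 these medians were 0.32 (12 positive), 0.04 (46 positive) and 0.01. Without CPT-11 libraries 2 and 4 the mitochondrial median was 0.24 (11 positive), and the nuclear median turned to -0.13 (18 of 78 positive). In each library, the mean log2 CPM of the mitochondrial subunits minus that of the nuclear subunits was 4.02, 4.03, 3.899 and 3.80 in CPT-11 libraries 1 to 4, against 3.48, 3.75, 3.36 and 3.88 in vehicle libraries 1 to 4. Vehicle 4 was above CPT-11 4 and the other vehicle libraries were below every CPT-11 library. The difference of the group means was 0.32, on the scale of log2(CPM + 0.5). It was 0.29 without CPT-11 2, 0.30 with nuclear copies added and 0.31 with the length trend removed, and no test was made of it.

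Gene length was checked, since the nuclear subunits are short. Their median length in the table was 728 bases, against 784 bases for the mitochondrial subunits and 2708 bases for all genes tested. Across the 78 nuclear subunits the log2 fold change went down with length (Pearson's r with log2 length -0.63). With the length of each gene's principal annotated transcript instead, r was -0.49, and -0.34 without CPT-11 2. This is a description across genes, which share their libraries. The 28 nuclear subunits under 600 bases had a median log2 fold change of 0.48, and the 19 of 1200 bases or more a median of -0.08. Without CPT-11 2 these were 0.11 and -0.10, with an r of -0.50, and without CPT-11 libraries 2 and 4 they were -0.05 and -0.22, with an r of -0.40. The slope of each library's deviation from the vehicle mean, per doubling of length, was -0.13, -0.54, -0.080 and -0.15 in CPT-11 libraries 1 to 4, against 0.044, -0.024, -0.00061 and -0.019 in vehicle libraries 1 to 4. All CPT-11 slopes were below all vehicle slopes, with CPT-11 2 far below the rest.

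**Figure D4:**
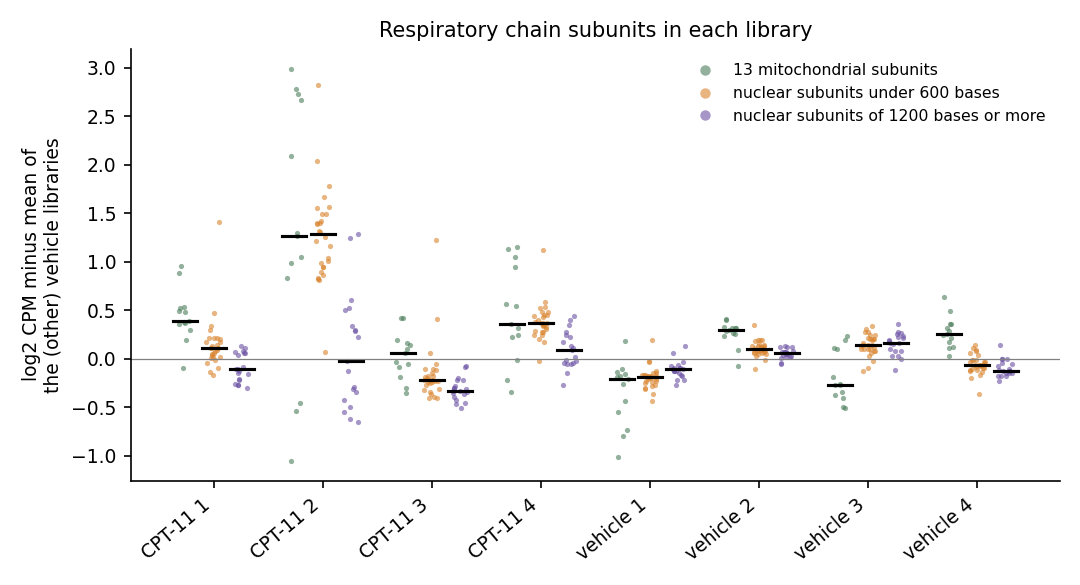
Each subunit's log2 CPM (pseudocount 0.5) in each library minus its mean over the vehicle libraries, or over the other 3 for a vehicle library, with medians as bars: 13 mitochondrial subunits (green), 28 nuclear subunits under 600 bases (orange) and 19 of 1200 bases or more (purple). In CPT-11 2 the short nuclear subunits have a median of 1.28 and the long ones -0.02, while in each vehicle library the short and long nuclear medians lie close together.

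With all libraries, the same trend was seen over all genes tested (r = -0.29 over 14011 genes), while r was -0.13 without CPT-11 2 and 0.01 without CPT-11 libraries 2 and 4. Among all genes tested, those of 400 to 600 bases had a median log2 fold change of 0.40 (320 genes), and the 24 nuclear subunits in that range had 0.47. From 600 to 900 bases the medians were 0.38 over 661 genes and 0.40 over 19 nuclear subunits. From 900 to 1200 bases they were 0.27 over 832 genes and 0.33 over 12 nuclear subunits. From 1200 to 1800 bases they were 0.18 over 2003 genes and 0.10 over 11 nuclear subunits, and at 1800 bases and longer -0.07 over 10059 genes and -0.21 over 8 nuclear subunits. Under 400 bases, where there were 4 nuclear subunits, the medians were 0.30 over 136 genes and 0.61. The nuclear subunits thus lay near the genes of their own length from 400 to 1800 bases when all libraries were used. Without CPT-11 2 the medians from 400 to 600 bases were 0.12 over all genes and 0.11 over nuclear subunits. From 600 to 900 bases they were 0.13 and 0.05, and from 900 to 1200 bases 0.10 and -0.01. From 1200 to 1800 bases they were 0.08 and 0.01. Nuclear subunits thus lay below genes of their own length from 600 to 1800 bases without CPT-11 2. At 1800 bases and longer the medians were -0.02 and -0.17, and under 400 bases 0.03 and 0.14. With each library's trend on length removed, the median over the 78 nuclear subunits was -0.01 (34 positive), while that over the 13 mitochondrial subunits was 0.42 (10 positive). A fall with length remained among the nuclear subunits (r = -0.22), with medians of -0.004 under 600 bases and -0.21 at 1200 bases or more.

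**Figure D5:**
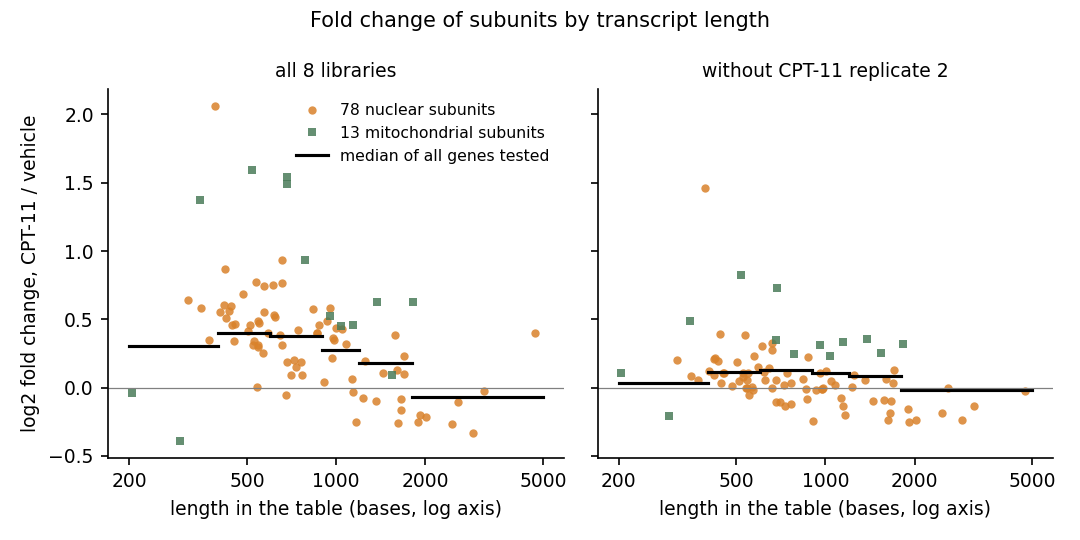
Log2 fold change of each subunit against its length in the table (log axis), with all 8 libraries on the left and without CPT-11 2 on the right: 78 nuclear subunits (orange circles), 13 mitochondrial subunits (green squares) and the median of all genes tested in each of 6 length ranges (black lines, the first from 0 and the last without upper end). On the left, the medians of the nuclear subunits (not drawn) lie near the black lines from 400 to 1800 bases. On the right, these medians lie below the lines in every range from 600 bases upward. Cox6b2 is the highest point in both panels. The fall with length is shallower on the right, where the black lines lie between -0.02 and 0.13.

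The start regions of the nuclear genes were searched for motifs of factors known to bind respiratory genes. RefSeq promoter sequence on GRCm38.p6 (250 bases before to 50 after the start) matched 66 of the 78 nuclear subunits. On either strand, the letters of NRF1, an activator of respiratory genes (GCGC, any base, TGCGC), were in 24.2% of the 66 promoters, against 10.2% of the promoters of all tested genes. The letters AAGATGGC of YY1 were in 13.6%, against 4.68%, and CCGGAAGT of GABPA in 7.58%, against 8.26%. TATAAA was in 9.09%, against 7.63%. A match is a string of letters, not a bound site. Ndufs6, a complex I subunit, held both NRF1 and YY1 letters, Uqcrc1 of complex III held NRF1 letters at 2 places, and Cox6b2 held none of the 4. The 3 are shown with matched letters in capitals.
Ndufs6, chr13:73328433-73328732, minus strand: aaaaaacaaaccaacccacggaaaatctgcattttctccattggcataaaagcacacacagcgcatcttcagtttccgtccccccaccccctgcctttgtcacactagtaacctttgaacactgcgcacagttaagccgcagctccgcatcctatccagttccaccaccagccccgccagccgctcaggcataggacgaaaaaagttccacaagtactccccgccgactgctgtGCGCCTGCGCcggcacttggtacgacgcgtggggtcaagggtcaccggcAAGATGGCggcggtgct
Uqcrc1, chr9:108936398-108936697, plus strand: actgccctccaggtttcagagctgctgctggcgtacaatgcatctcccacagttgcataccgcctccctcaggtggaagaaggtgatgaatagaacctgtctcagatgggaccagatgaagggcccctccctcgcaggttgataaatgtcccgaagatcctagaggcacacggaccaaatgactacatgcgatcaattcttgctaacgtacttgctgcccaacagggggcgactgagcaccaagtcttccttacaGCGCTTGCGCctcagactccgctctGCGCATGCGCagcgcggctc
Cox6b2, chr7:4753045-4753344, minus strand: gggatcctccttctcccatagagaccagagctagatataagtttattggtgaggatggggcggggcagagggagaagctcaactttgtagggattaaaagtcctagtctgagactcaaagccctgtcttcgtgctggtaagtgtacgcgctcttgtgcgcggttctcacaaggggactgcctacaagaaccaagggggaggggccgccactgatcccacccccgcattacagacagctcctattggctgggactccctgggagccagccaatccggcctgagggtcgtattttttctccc

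Genes that act around the respiratory chain, together with cytosolic ribosomal proteins as other short nuclear genes, were read from 10 further lists. Of their 306 tested genes, 5 passed (1.63%, against 5.5% of all genes tested). The cytosolic ribosomal proteins, which do not act in the respiratory chain, made up 78 of the 306 and 1 of the 5. Coq8a, a kinase-like protein needed to make ubiquinone, fell in CPT-11 libraries: it had 26.7, 28.0, 25.6 and 37.0 CPM, against 67.5, 79.4, 91.3 and 71.9 CPM in vehicle libraries. The groups were far apart, with a log2 fold change of -1.40 ± 0.16 (SE; adjusted p = 0.0014, edgeR) and -1.37 without CPT-11 2. The other 16 tested genes of electron carriers did not pass, and the list's median log2 fold change was -0.19. Among 12 regulators of mitochondrial biogenesis, Esrrg, a nuclear receptor that drives oxidative genes, fell: it had 2.36, 1.48, 3.47 and 1.78 CPM in CPT-11 libraries, against 8.28, 6.396, 5.80 and 5.59 CPM in vehicle libraries (log2 fold change -1.51 ± 0.28, SE; adjusted p = 0.016, edgeR). Myc, a growth regulator that also acts on mitochondrial genes, rose, with 60.5, 43.0, 59.4 and 54.8 CPM in CPT-11 libraries, against 39.5, 30.1, 37.0 and 36.8 CPM in vehicle libraries (log2 fold change 0.60 ± 0.14, SE; adjusted p = 0.041, edgeR). The groups did not overlap for either gene.

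Among 9 mitochondrial stress genes, Gdf15, a secreted factor raised by cell stress, rose, with 5.40, 9.93, 4.10 and 5.69 CPM in CPT-11 libraries, against 0.87, 1.09, 1.29 and 1.62 CPM in vehicle libraries (log2 fold change 2.35 ± 0.32, SE; adjusted p = 0.0045, edgeR). Gdf15 is also a p53 target. Rps27l, likewise a p53 target, was the one of 78 cytosolic ribosomal protein genes that passed, with a log2 fold change of 1.07 ± 0.26 (SE; adjusted p = 0.047, edgeR). The remaining lists had no gene past the threshold: 23 of mitochondrial DNA transcription and maintenance (smallest p for the topoisomerase Top3a, -0.65 ± 0.19, adjusted p = 0.077, edgeR), 17 of mitochondrial RNA processing (Angel2, -0.40), 47 assembly factors (the complex I factor Ndufaf4, 0.65 ± 0.18, adjusted p = 0.064, edgeR), 17 of the citric acid cycle (Idh3b, -0.38), 7 of uncoupling and carriers (the ADP and ATP exchanger Slc25a4, 0.88) and 79 mitochondrial ribosomal proteins (Mrps6, 0.79). Their median log2 fold changes were 0.01, -0.07, 0.21, -0.16, 0.32 and 0.23 in that order. The cytosolic and mitochondrial ribosomal proteins, which are also short, had medians of 0.23 and 0.23, and 0.01 and 0.08 without CPT-11 2.

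The remaining members had too few counts to be tested. Of the 44, 26 had no count in any library, among them 5 nuclear subunits (Cox4i2, Cox8b, Cox8c, Cox7b2 and a duplicate entry of Atp5o), and 18 had a few counts in some library, mostly pseudogenes and transfer RNAs.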

How the data were processed

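Total RNA of 8 libraries was sequenced with standard Illumina preparation, per the labels' protocols. The authors deposited estimated counts per gene, not normalized, in which 10.3 to 11.1% of a library's values were not whole. Bowtie2 2.4.1 and GRCm38.p6 are named in the submitters' processing notes, while no source used here gives the counting tool or any use of strand. Lengths are those the authors deposited in the same table. The 543 unnamed rows (0.325 to 0.662% of counts) were left out. Counts were rounded and tested with edgeR 4.0.16 (R 4.3.3; TMM, filterByExpr, robust quasi-likelihood test), and checked on simulated data. CPM uses the TMM library sizes. DESeq2 1.42.0 and limma 3.58.1 gave alternatives. Copies were found with BLAST+ 2.17.0 in GENCODE M21 transcripts (at least 90% identity over 100 bases). Length trends were fitted by loess on log2 length. Members, lists and tests were chosen with earlier results of these data known. Named were all mitochondrial protein and ribosomal RNA genes, core and isoform-pair subunits, each member past the threshold, the smallest p per complex and direction, and each list's called genes or smallest p, apart from an item not reported here. Depth of 20790164 to 23479121 counts gives floors of 0.129 to 0.145 CPM (3 counts), for counting error only. These floors use the counts in named genes without TMM scaling, so they are not on the exact scale of the other CPM values, least of all in CPT-11 2.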

Additional observations from a re-analysis of the deposited data

Results flagged for a closer look

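In 11 of 96 groups of 4 libraries, 1 library lay so far from the other 3 that its gap exceeded Dixon's 95% critical value for 4. For a single group chance gives about 1 in 20. The 96 groups come from the same 8 libraries, so they are not independent and the count is only a description. All 11 were CPT-11 2. It was the highest CPT-11 library for Cox6b2 (16.8 CPM, others 4.80 to 5.99), Cox6a1 (1209 CPM, others 347 to 474), Cox7a1 (96.2 CPM, others 26.5 to 29.9), Cox7a2 (499 CPM, others 115 to 180), Cox8a (740.2 CPM, others 229 to 312), Atp5g2 (8.26 CPM, others 4.77 to 5.17), mt-Atp6 (8808 CPM, others 867 to 2137) and mt-Nd6 (3698 CPM, others 716 to 1172). It was the lowest for Sdha (262 CPM, others 335 to 348). Its slope of nuclear subunits on log2 length was -0.54 (others -0.15 to -0.08), and mt-Co1 held 27.6% of its mitochondrial protein counts (others 54.0 to 58.7%). The cause was not tested.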

How the results depend on the processing

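No value reported as called changed sign. Over all genes, 770 passed with edgeR, 1884 with DESeq2, 1304 with the length trend removed, 1212 without CPT-11 libraries 2 and 4, and 236 (without vehicle 3) to 1522 (without CPT-11 3) with 1 library left out: 392, 1177, 1522 and 477 without CPT-11 1 to 4 and 240, 403, 236 and 416 without vehicle 1 to 4. Of mitochondrial genes, 0 passed in edgeR, 2 in DESeq2, 1 with the length trend removed, 1 with the replicate block (mt-Rnr2) and 0 to 3 with 1 library left out (1 without CPT-11 2; 3 without CPT-11 3, mt-Nd6, mt-Co2 and mt-Ts1). Of nuclear members, 1 passed in edgeR, 2 in DESeq2, and 0 (without any 1 vehicle library) to 2 (without CPT-11 3, with Uqcrb) with 1 library left out. Of the further lists, 5 genes passed, 26 in DESeq2, 17 with the length trend removed, 13 without CPT-11 libraries 2 and 4, and 2 (without vehicle 1 or 3) to 26 (without CPT-11 3) with 1 library left out. The difference in mitochondrial share was 1.41 percentage points, 1.03 to 1.75 with 1 library left out and 3.97 with nuclear copies added. The mitochondrial minus nuclear difference of 0.32 ranged from 0.24 to 0.41, and the length slope of -0.22 from -0.27 to -0.12 with 1 library left out. Alternatives with nuclear copies added and with the principal transcript's length were chosen after seeing the data.

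Whether replicate numbers pair the libraries was not settled: same-numbered libraries had correlations of their deviations of 0.23, 0.14, -0.12 and 0.09. CPT-11 libraries 1 and 2 correlated best with the vehicle library of their own number, and 3 and 4 did not. With the replicate block 686 genes passed (4.9%), Cox6b2 remained called, and no other member's call besides mt-Rnr2 changed. The length correction could not be applied to the share of counts. For the mitochondrial minus nuclear difference, the version without the nuclear genes set apart by name or annotation is the reported one (0.33 with them kept). Low counts limit Cox6b2 and the silent isoforms.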
